A study of Mus musculus with 23 samples.

Results

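Neutrophils sorted from peripheral blood (PB) of wild-type (WT) mice were compared with neutrophils sorted from bone marrow (BM) of WT mice by bulk RNA-Seq, with 3 libraries from each tissue. The comparison covers every gene whose deposited FPKM (fragments per kilobase of transcript, scaled to the mapped fragments of the library) reached 1 or more in 3 or more of the 6 libraries. That rule kept 8237 of the 21878 genes listed and used 6 of the 23 samples of the series. Of the genes kept, 6976 reached an FPKM of 1 in all 6 libraries. Another 640 were kept only through the BM libraries and 160 only through the PB libraries, so these genes were bound to differ. At the edge of the rule, 835 genes reached an FPKM of 1 in exactly 3 libraries, and 182 were left out because they did so in 2.

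The mice were untreated young adults, labelled WT with no transgene or deletion named. The study's WT strain is C57BL/6J, with n = 3 mice per tissue. The methods state for the study as a whole that mice of either sex were used. All 6 libraries held reads of each of the 4 Y-linked genes checked. Neutrophils of both tissues were sorted as CD45+CD11b+Ly6G+ cells. Blood cells were first enriched with a negative-selection neutrophil kit, whereas the methods name no such step for marrow cells, which were taken from tibias and femurs. Tissue and enrichment step therefore cannot be told apart in any difference given here. The study counts mice as the replicates of these libraries, and the labels do not say whether a blood and a marrow library came from the same mouse.

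Neutrophils are made in the marrow from dividing myeloid precursors. As they mature they stop dividing, fill their granules in a fixed order (primary, then specific, then gelatinase granules), and fold the nucleus into segments. Mature cells are held in the marrow by the chemokine receptor CXCR4, which binds CXCL12 from stromal cells, and by the integrin VLA-4, which binds VCAM-1. Release into blood is favoured by the chemokine receptor CXCR2 and by granulocyte colony-stimulating factor (G-CSF). A marrow sort on Ly6G holds late precursors together with mature cells, and blood holds almost only the latter.

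Depth was similar in both tissues. Recovered read pairs on genes ranged from 18371327 to 19329772 in BM and from 17703309 to 18589856 in PB, and where no read was counted the limit is 3 reads, which equals 0.155 to 0.170 reads in every 1000000 and covers counting error only. BM libraries held 8080 to 8110 genes at an FPKM of 1 or more, against 7452 to 7583 in PB. The 20 most abundant genes held 43.5% to 45.7% of all FPKM in BM and 25.7% to 29.0% in PB. PB replicate 3 stood apart from the other PB libraries: its median absolute log2 difference from them was 0.145 and 0.171, compared with 0.0827 between PB replicates 1 and 2. Without it, 1786 differentially expressed genes were called in place of 1811, and 94.4% of the 1811 were among them.

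The sorted cells carried the neutrophil markers, although the gate antigen itself was lower in blood. *Ly6g* measured 781, 760.4 and 775 FPKM in the BM libraries and 92.4, 94.7 and 116 in the PB libraries, so its transcript fell (log2 fold change -2.93 ± 0.09, SE). *Ptprc*, which encodes CD45, measured 349 ± 5.31 FPKM in BM and 655 ± 44.8 in PB (SD, n = 3). Lists of markers of other cells differed in level. The progenitor list summed to 13.1 to 13.3 FPKM per library in BM and 5.24 to 5.55 in PB (*Mpo*, *Elane*, *Cd34* and *Flt3* below 1 in both). Of its 4 genes tested, *Kit* and *Ms4a3* were lower in PB, but both had passed the filter only through BM and were bound to differ. *Prss57* and *Prtn3* had log2 differences of -0.03 and 0.36. None of the 8 erythroid, 8 B-cell and 5 basophil markers in the table passed the filter, and their sums were 1.94 to 3.93, 0.633 to 0.945 and 0.0361 to 0.180 in BM against 0 to 0.481, 0.00958 to 0.166 and 0 to 0.130 in PB. The platelet list (2 of 7 genes tested, 1 of which fell) summed to 3.65 to 4.05 in BM and 1.62 to 2.80 in PB. The T and NK cell list (1 of 8 genes tested, a log2 difference of -0.62) summed to 5.38 to 6.52 in BM and 3.64 to 4.94 in PB. For the endothelial and stromal list (2 of 7 genes tested, of which *Col1a1* fell) the sums were 4.45 to 5.01 and 2.43 to 3.02. The monocyte list summed to 662 to 797 in BM and 254 to 302 in PB, nearly all *Ly6c2* in BM: *Ly6c2* fell, *Csf1r* (42.3 to 133) and *Adgre1* (9.90 to 29.7) rose, and *Ccr2*, *Cx3cr1* and *F13a1* stayed below 0.1. The dendritic cell list summed to 8.72 to 9.97 in BM and 10.95 to 16.2 in PB (*Cd74* rose, *H2-Aa* and *H2-Ab1* fell to near 0). The eosinophil list summed to 64.7 to 73.3 in BM and 20.2 to 21.4 in PB, with *Epx* and *Prg2* near 0. Of its 3 genes tested, *Ear2* fell and 1 rose, with a median log2 fold change of 0.65, and 1 had passed the filter only through PB. The part of other cells in the results was not tested.

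Across the 8237 genes, the text calls a gene differentially expressed (DEG) where limma gave a Benjamini-Hochberg adjusted p below 0.05 and the log2 fold change on the log2(FPKM + 1) scale exceeded 1 in size. Fold changes are PB minus BM, so a negative value is lower in blood, and a number given after a gene with no unit is its log2 fold change. In all, 1811 genes were DEGs (22.0% of those tested), of which 647 were higher in PB (7.85%) and 1164 were lower (14.1%). The adjusted p alone was passed by 6023 genes (73.1%). The 3 BM values and the 3 PB values did not overlap for any of the 1811 DEGs. The thresholds of the call select such genes, so this is no separate support for the calls. Falls were the larger: 274 DEGs fell by more than 2 log2 units and 110 rose by more than 2, and 21 fell by more than 4 while 7 rose by more than 4. Of the DEGs that were lower, 399 had passed the filter only through the BM libraries, and of those that were higher, 72 had passed only through PB. Over all tested genes the log2 fold changes had a median of -0.12, and rescaling the libraries by their median ratio brought it to -0.00185, while the values below stay on the deposited scale. Under that rescaling the DEGs split into 775 higher and 1010 lower.

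**Figure D1:**
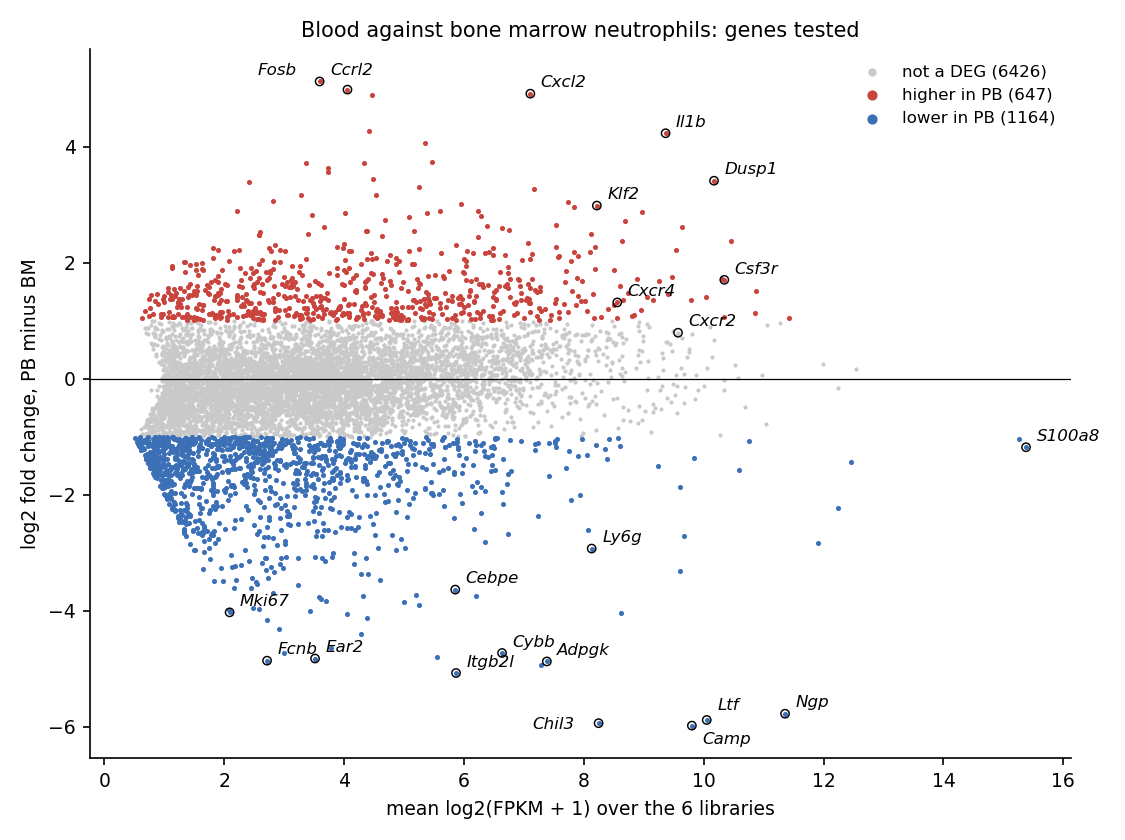
Log2 fold change from BM to PB (vertical axis) against the mean level of each gene over the 6 libraries, as log2(FPKM + 1) (horizontal axis), for 8237 genes. Of the points, 647 are DEGs higher in PB, 1164 are DEGs lower in PB and 6426 are not DEGs; the falls reach further from 0 than the rises.

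Genes of the specific granules were lower in blood. In these granules, which hold antimicrobial and iron-binding proteins, 10 of 12 genes fell and none rose, compared with 14.1% of all genes tested that fell, with a median log2 fold change of -3.88 against -0.12 over all genes. *Camp* (chr9:109847377-109849456, GRCm38), the cathelicidin precursor, measured 7153, 6955 and 7184 FPKM in BM and 105, 98.6 and 133 in PB. Mean *Camp* was 63.2-fold lower in blood (log2 fold change -5.98 ± 0.11, adjusted p = 8.58e-09). Among genes with a mean of at least 5 FPKM this was the largest fall on the log2(FPKM + 1) scale, whereas with a pseudocount of 0.1 *Fcnb* (-6.77), *Mki67* (-6.74) and *Top2a* (-6.63) fell further than *Camp* (-5.99). *Ltf* (lactoferrin, which binds iron) went from 8252, 8190.0 and 8007 FPKM in BM to 128, 119 and 169 in PB. *Ngp*, a neutrophilic granule protein of the cathelicidin family, went from 20012, 19179 and 19081 to 329, 304 and 441 FPKM. In each of these genes PB replicate 3 was the highest of the blood libraries, yet every PB value lay far below every BM value. PB replicate 3 was the highest for all 10 fallen genes of the list, compared with 407 of all 1164 DEGs lower in PB. *Chil3* (a chitinase-like lectin, log2 fold change -5.94), *Itgb2l* (-5.07), *Cd177* (a surface glycoprotein, -4.04), *Lcn2* (lipocalin 2, which captures bacterial siderophores, -2.83) and *Lyz2* (lysozyme, -2.22) fell as well. The list as a whole held 13.05% ± 0.124 of all FPKM in BM and 1.91% ± 0.252 in PB (SD, n = 3). *Hp*, haptoglobin, measured 1972 ± 56.4 and 2086 ± 349 FPKM, a log2 difference of 0.07. The C/EBP motif was searched as TTGCNNAA on both strands from 250 bases before to 50 after the RefSeq gene start. It lay in 3 of 11 promoters of the list (27.3%), against 10.8% of all promoters and 8.45% of those of the genes tested. The promoter of *Camp* did not hold it.

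Gelatinase granules and secretory vesicles, the last to form, had 4 genes that fell and 2 that rose among 8 tested, 1 of which had passed the filter only through BM. Over all genes tested, 14.1% fell and 7.85% rose. *Fcnb* (ficolin B, a lectin made early in myeloid development) fell from 36.5, 35.0 and 31.8 FPKM in BM to 0.232, 0.195 and 0.221 in PB (log2 fold change -4.86 ± 0.07). *Mmp8*, the neutrophil collagenase, fell from 2072, 2067 and 2110.5 to 302, 283 and 374 FPKM. *Mmp9*, the gelatinase that names the granule, measured 2735, 2772 and 2779 FPKM in BM and 1562, 1504 and 1763 in PB, and its log2 difference of -0.78 ± 0.07 missed the fold threshold although the groups did not overlap. *Retnlg* (resistin-like gamma) fell by 1.43 on the log2 scale from 9238 ± 553 FPKM, whereas *Cd14*, the lipopolysaccharide co-receptor stored in secretory vesicles, rose by 3.74. *Mmp25*, a membrane-bound metalloprotease, fell by 2.16. Of 8 primary granule genes, whose proteins kill microbes and are made in promyelocytes, 5 passed the filter, 1 of them only through BM, and 2 fell. *Mpo* (myeloperoxidase) averaged 0.276 FPKM and *Elane* (neutrophil elastase) 0.458 in BM, and *Prss57* measured 2.30 ± 0.335 FPKM in BM and 2.25 ± 0.479 in PB. *Cd63*, a tetraspanin of the granule membrane, fell by 1.39. *Ms4a3*, a gene of granulocyte precursors, had 73, 78 and 66 reads in the BM libraries and none in the PB libraries.

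The phagocyte oxidase did not move as one complex. This enzyme makes superoxide from NADPH and is built from membrane subunits and cytosolic subunits that join on activation. *Cybb*, its catalytic subunit gp91phox, fell from 508, 508 and 516 FPKM in BM to 16.6, 15.6 and 23.6 in PB, 27.5-fold between the means (log2 fold change -4.73 ± 0.14, adjusted p = 4.51e-08). *Hvcn1*, the proton channel that balances the charge moved by the oxidase, fell by 4.01 log2 units. The cytosolic subunit *Ncf1* (p47phox) fell by 1.51. *Cyba* (p22phox), the membrane partner of *Cybb*, measured 947, 915 and 909.8 FPKM in BM and 590.2, 568 and 686 in PB. *Cyba* and *Rac2* differed by -0.59 and -0.09, the latter with a sign that turned positive under both rescalings. In all, 3 of the 8 genes fell, compared with 14.1% of all genes tested, and none rose, with a median of -0.74.

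The S100 calcium-binding proteins held the largest share of FPKM among the 25 lists. *S100a8* alone measured 69454, 60542 and 62874 FPKM in BM and 27569.9, 24803 and 33119.9 in PB, and it fell (log2 fold change -1.18 ± 0.12). Its partner in calprotectin, *S100a9*, fell by 1.04, which came to 0.91 under the median-ratio rescaling and then missed the fold threshold. *S100a13* fell by 1.12. The S100 list held 25.3% ± 1.29 of all FPKM in BM and 14.7% ± 1.47 in PB, and *S100a6* and *S100a11* differed by 0.01 and 0.25. Of the stefin A cluster, cysteine protease inhibitors that are near-identical copies and share reads, *Stfa3* fell (-2.29), *Stfa1* differed by 0.20 and *Stfa2l1* rose (1.04, 0.99 without PB replicate 3), so their split is uncertain.

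**Figure D2:**
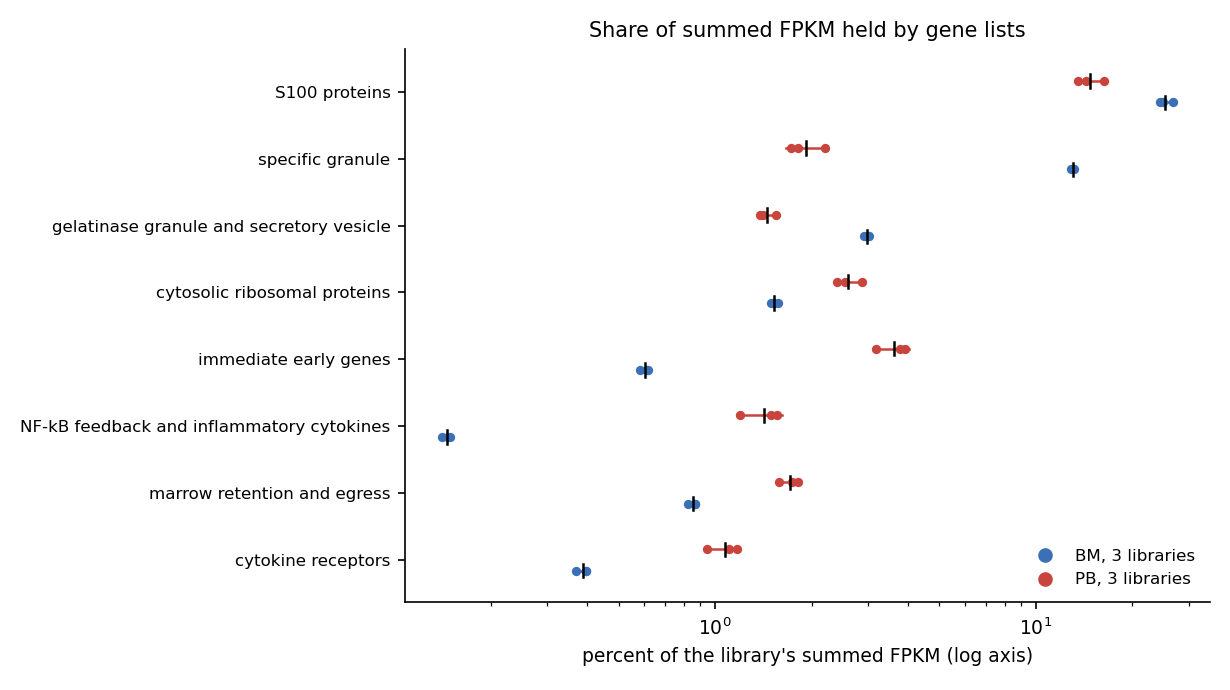
Share of each library's summed FPKM held by 8 gene lists (horizontal axis, percent, log scale), with a point per library, a black tick for the mean and a coloured line for ± SD over 3 libraries. Specific granule genes go from 13.05% in BM to 1.91% in PB, and immediate early genes from 0.606% to 3.62%.

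The 20 mitosis genes tested fell, compared with 14.1% of all genes tested. However, 18 of the 20 had passed the filter only through the BM libraries and so were bound to differ. Of all 640 genes that passed in that way, 399 fell, and with an FPKM of 1 required in all 6 libraries only 1 fall of a mitosis gene was left. *Mki67*, the proliferation marker Ki-67, measured 15.6, 16.7 and 16.2 FPKM in BM and 0.0503, 0.0537 and 0.0532 in PB, from 3024, 3262 and 3016 reads and 9, 10 and 10 reads (log2 fold change -4.03 ± 0.07, adjusted p = 7.55e-09). *Ube2c*, the ubiquitin-conjugating enzyme of the anaphase-promoting complex, measured 29.6, 23.4 and 27.7 FPKM in BM and 0.971, 0.292 and 0.462 in PB. Both genes were far below their marrow level in each blood library, at 5 to 16 reads. *Top2a* (topoisomerase II, -3.99) and *Cdc20* (an activator of the anaphase-promoting complex, -3.47) fell by similar amounts, and *Ccnb2* (cyclin B2) by 2.72. DNA replication genes fell in 7 of 12 cases, compared with 14.1% of all genes tested, led by *Rrm2* (a ribonucleotide reductase subunit, -2.92). Of these 12 genes 8 had passed only through BM, and none fell with the filter on all 6 libraries, while *Pcna* and *Mcm4* each differed by 0.53. In bulk samples, fewer dividing cells and less of such RNA per cell cannot be told apart.

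The promoters of these mitosis genes often held sequence elements that the choice of genes did not use. The cell cycle homology region, searched as TTTGAA in the same window of both strands (GRCm38.p6), lay in 11 of the 16 mitosis promoters held by the reference table (68.8%), compared with 18.1% of all 27025 promoters and 11.7% of those of the genes tested. CCAAT lay in 14 of 16 (87.5%) against 37.9% of all. Among DNA replication genes, 12 of 17 held CCAAT and 6 of 17 held an E2F site, searched as TTTCCCGC or TTTGGCGC (35.3%). An E2F site lay in 1.6% of all promoters and 3.24% of those of the genes tested. These matches are descriptions of letters, not of bound factors. The 250 bases shown lie before the start of *Ube2c*, the most changed mitosis gene with a pseudocount of 1. They hold both CCAAT and TTTGAA. The bases are read 5′ to 3′ on the plus strand, chr2:164769679-164769928, with CCAAT (or ATTGG, its reverse complement) and TTCAAA (the reverse complement of TTTGAA) in capitals. Windows around TTTGAA, also in capitals, follow for *Mki67* (chr7:135716480-135716505 and chr7:135716462-135716487, minus strand), *Top2a* (chr11:99024353-99024378, minus strand) and *Cdc20* (chr4:118437346-118437371, minus strand), each read along its gene.
Ube2c promoter: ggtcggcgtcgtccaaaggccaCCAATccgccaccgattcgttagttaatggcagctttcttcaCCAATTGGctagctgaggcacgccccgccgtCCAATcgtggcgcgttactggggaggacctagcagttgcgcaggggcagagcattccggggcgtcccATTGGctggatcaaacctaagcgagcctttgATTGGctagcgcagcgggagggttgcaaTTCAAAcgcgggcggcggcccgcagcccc
Mki67 first window: agcgccagaaTTTGAAccgccgtttt
Mki67 second window: gccgttttggTTTGAAtcgggcgggc
Top2a window: attggtccatTTTGAAgattctcccg
Cdc20 window: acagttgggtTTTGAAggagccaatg

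Of 15 transcription factors of granulocyte development tested, 4 fell and 2 rose, compared with 14.1% and 7.85% of all genes tested. The median was 0.12, and 2 had passed only through BM. *Cebpe*, which drives specific granule genes and terminal maturation, fell from 209, 194 and 205 FPKM in BM to 14.5, 15.5 and 16.2 in PB (log2 fold change -3.64 ± 0.06). *Myb* (-2.66) and *Gfi1* (-2.22), factors of precursors, and *Klf5* (-2.25) also fell. *Klf2*, a factor of quiescence in other blood cells, rose from 104, 105 and 106 to 858, 851 and 800.5 FPKM (log2 fold change 2.98 ± 0.05), and *Cebpb* rose from 352, 359 and 357 to 956, 997 and 799.6 FPKM. Blood neutrophils thus had less *Cebpe* and more *Cebpb* than marrow neutrophils in every library. *Spi1*, which encodes PU.1, differed by 0.74.

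Genes of the nuclear envelope, which shape the segmented nucleus, moved in both directions. *Syne1*, a nesprin that ties the nucleus to the cytoskeleton, fell from 64.1, 67.5 and 68.2 FPKM in BM to 5.998, 6.44 and 4.30 in PB, and its paralog *Syne2* fell by 2.12 log2 units. *Lmnb2* (lamin B2) fell by 2.44, whereas *Lmnb1* (lamin B1) rose from 84.7, 85.7 and 84.2 to 245, 246 and 246 FPKM. *Lmna*, scarce in neutrophils, was at 0.0694 FPKM in BM and 1.43 in PB. *Lbr*, the lamin B receptor needed for nuclear lobulation, measured 219.7, 215 and 222 FPKM in BM and 215, 210.0 and 221 in PB, with overlapping groups and a log2 difference of -0.02 that turned to 0.11 under rescaling. *Hmgn2*, a nucleosome-binding protein, fell by 1.32, and *Sun2*, the nesprin partner, differed by -0.63. In all, 5 of 13 genes fell and 2 rose, compared with 14.1% and 7.85% of all genes tested. Of the 13, 2 had passed only through BM and 1 only through PB.

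**Figure D3:**
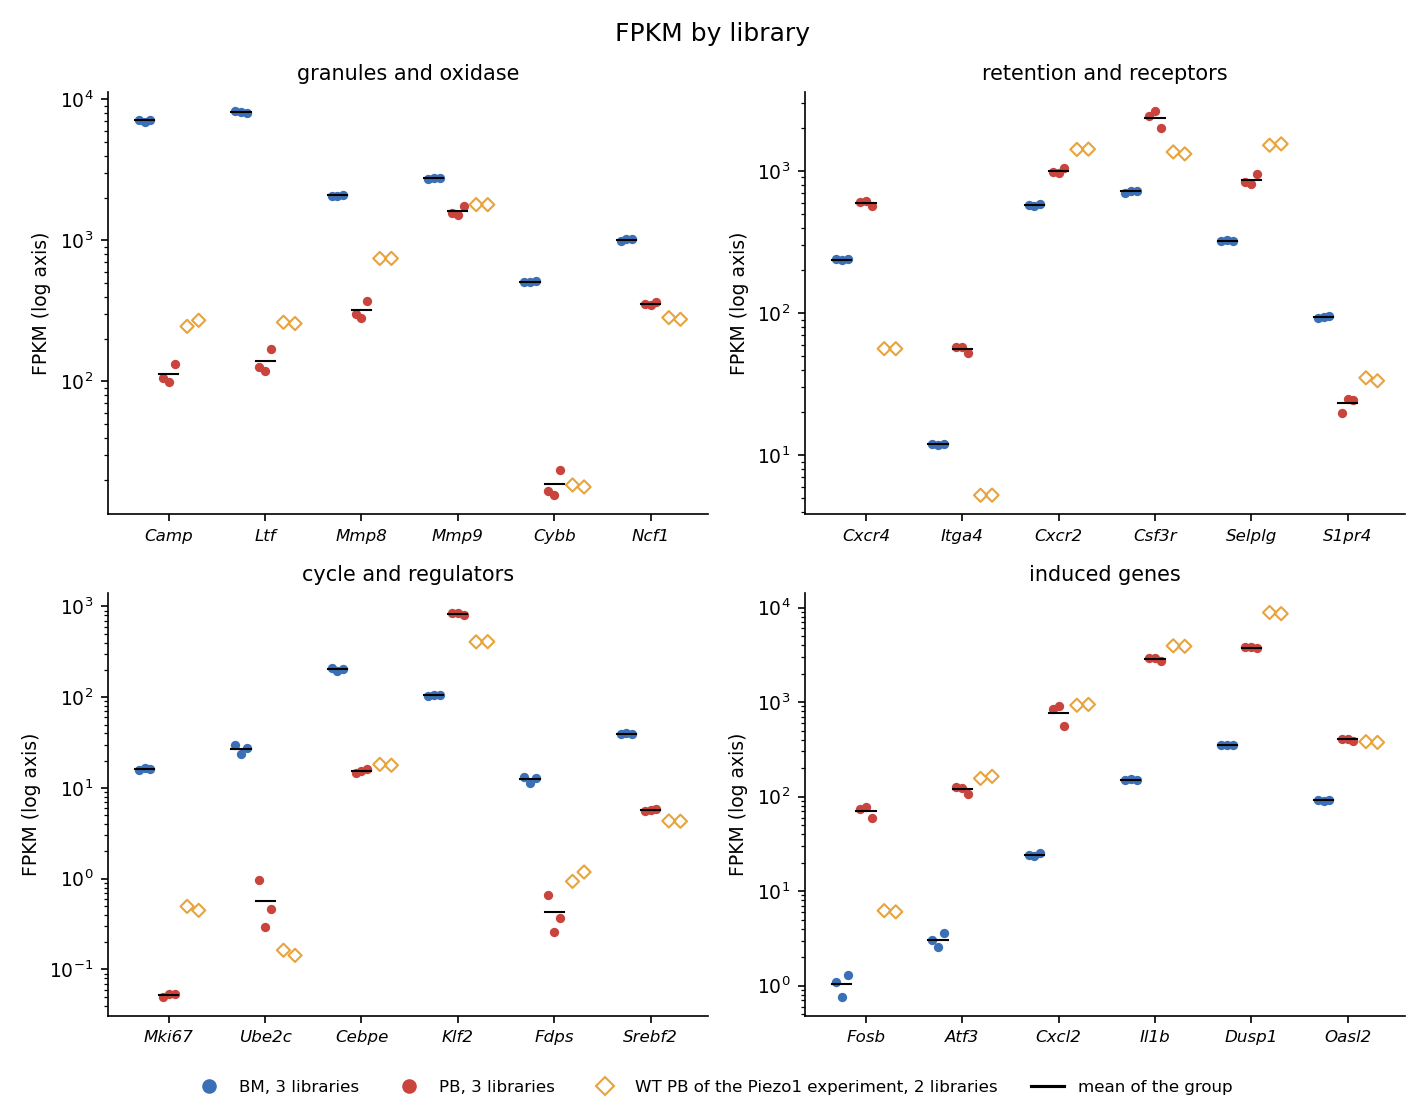
FPKM of 24 genes in each library (vertical axis, log scale), with a point per library for the 3 BM and 3 PB libraries, a bar for each group mean, and open diamonds for the 2 WT PB libraries of the separate Piezo1 experiment. *Camp*, *Ltf*, *Mmp8*, *Mmp9*, *Cybb*, *Mki67* and *Ube2c* lie lower in PB than in BM, and *Cxcr4* and *Itga4* lie higher in these PB libraries but lower in the diamonds.

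Both retention receptors were higher in blood than in marrow in these libraries. *Cxcr4* measured 239, 235 and 239.6 FPKM in BM and 601, 609.9 and 569.8 in PB and rose 2.49-fold between the means (log2 fold change 1.31 ± 0.05, adjusted p = 1.72e-07). *Itga4*, the alpha chain of VLA-4, rose from 12.1, 11.8 and 12.1 to 58.0, 58.0 and 52.6 FPKM (log2 fold change 2.14 ± 0.06). These 2 values went the other way in the WT PB libraries of the Piezo1 experiment, where *Cxcr4* was at 56.2 and 56.2 FPKM and *Itga4* at 5.23 and 5.24, below the BM level. The tables of the experiments were normalized separately, so this is a side-by-side reading with no test. *Cxcr2* measured 578, 569 and 584 FPKM in BM and 983, 963 and 1057 in PB, a log2 difference of 0.79 below the fold threshold, and 1417 and 1424 in the Piezo1 experiment's WT blood. *Csf3r*, the G-CSF receptor, rose from 704, 728 and 725 to 2453, 2633 and 1996 FPKM, with 1361 and 1319 in the other blood libraries, again above every BM value.

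Of 16 retention and egress genes tested, 7 rose, compared with 7.85% of all genes tested, and the 2 that fell were a share near the 14.1% of all genes. The median was 0.77, and 2 of the 16 had passed only through BM. *Selplg* (PSGL-1, the selectin ligand used for rolling, 1.41), *Icam1* (2.04), *Itgal* (the alpha chain of LFA-1, 1.27) and *Cd44* (1.17) rose. *S1pr4*, a sphingosine-1-phosphate receptor, fell from 93.0, 94.2 and 95.1 FPKM in BM to 19.9, 24.9 and 24.5 in PB. *Vcam1*, the VLA-4 ligand of stromal cells, had a mean of 3.16 FPKM in BM and 0.027 in PB, beside the endothelial and stromal sums given above. *Itgam* (CD11b) measured 764 ± 10.3 FPKM in BM and 403 ± 25.7 in PB, and *Itgb2* (CD18) 939.9 ± 9.34 and 704 ± 34.0, both within the fold threshold.

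Of 10 receptors for chemoattractants, 5 were higher in blood and 2 lower, and the list summed to 1549 FPKM in BM and 1372 in PB. For this and the next 2 lists, the shares over all genes tested were 7.85% higher and 14.1% lower. *Ccrl2*, an atypical receptor that binds chemerin, rose from 2.50, 1.54 and 1.90 FPKM in BM to 95.5, 95.0 and 87.2 in PB, 46.7-fold between the means. It lies beside *Ltf* on chromosome 9 (*Ltf* chr9:111019292-111042766, *Ccrl2* chr9:111054834-111057518), and the neighbours moved in opposite directions. *Cxcr1* rose by 1.64, while the leukotriene B4 receptor *Ltb4r1* fell by 1.86 and the formyl peptide receptor *Fpr2* by 1.39. The complement receptor *C5ar1* differed by 0.49. Of 19 cytokine receptors 8 rose and none fell, including *Il1rap* (the IL-1 receptor accessory chain, 2.24), *Tnfrsf1b* (TNF receptor 2, 2.04), *Il10ra* (1.80) and *Tnfrsf1a* (TNF receptor 1, 1.06). Of 23 pattern recognition and Fc receptors 9 rose and 2 fell, the rises led after *Cd14* by *Clec7a* (dectin-1, 2.49), the inflammasome sensor *Nlrp3* (2.18), *Clec4n* (dectin-2, 2.04) and *Clec4d* (1.59). *Fcer1g*, the signalling chain of Fc receptors and several C-type lectins and the most abundant of the list, differed by 0.18.

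Immediate early genes had the highest median of the 25 lists. These genes are switched on within minutes of a stimulus without new protein synthesis. Of 20 tested, 18 rose and none fell, compared with 7.85% of all genes tested, with a median of 2.28, and 4 had passed the filter only through PB. *Fosb* (chr7:19302696-19310118), an AP-1 subunit, rose from 1.09, 0.767 and 1.30 FPKM in BM to 74.6, 78.3 and 59.0 in PB (log2 fold change 5.12 ± 0.13, adjusted p = 2.87e-08). *Atf3*, a stress-induced factor, rose from 3.03, 2.54 and 3.58 to 125, 124 and 107 FPKM. *Dusp1*, a phosphatase that turns off MAP kinases, rose from 353, 351 and 353 to 3783, 3796 and 3713 FPKM. *Nr4a1*, an orphan nuclear receptor, rose by 3.71, and *Zfp36*, which promotes decay of cytokine mRNA, by 2.37. For these genes all blood libraries were well above all marrow libraries. PB replicate 3 was the lowest blood library for 15 of the 18 genes, compared with 339 of all 647 DEGs higher in PB. In the WT blood of the Piezo1 experiment, *Fosb* was at 6.22 and 6.04 FPKM, nearer to BM, whereas *Atf3* was at 156 and 164 and *Dusp1* at 8854 and 8609.6. The cyclic AMP response element (TGACGTCA) lay in 2 of 19 promoters of the list, against 1.88% of all and 3.54% of those of the genes tested. The AP-1 motif (TGANTCA) lay in none, against 7.93% and 4.74%. *Fosb* was among the genes whose promoter held neither.

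Of 20 tested genes of NF-kB feedback and inflammatory cytokines, 13 rose, compared with 7.85% of all genes tested, and none fell. The median was 1.61, and 1 of the 20 had passed only through PB. *Cxcl2*, a CXCR2 ligand, rose from 23.9, 23.3 and 25.2 FPKM in BM to 836, 918 and 562 in PB (log2 fold change 4.91 ± 0.16). *Il1b* rose from 151, 153 and 149 to 2946, 2927 and 2696 FPKM and stood at 3934 and 3889 in the other WT blood libraries. PB replicate 3 was the lowest blood library for both, and for 11 of the 13 risen genes, compared with 339 of all 647 DEGs higher in PB. *Ptgs2* (cyclooxygenase-2, 4.06) and *Ccl3* (3.63) were among the largest rises, and *Nfkbia*, the inhibitor that NF-kB itself induces, rose by 2.71. The list held 0.145% ± 0.00436 of FPKM in BM and 1.42% ± 0.196 in PB.

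Interferon-stimulated genes rose in 13 of 27 cases, compared with 7.85% of all genes tested, and fell in none. *Oasl2*, an antiviral sensor relative, rose from 91.5, 90.7 and 92.1 FPKM in BM to 405, 410.5 and 390.1 in PB and stood at 381 and 374 in the other WT blood libraries. *Gbp2* (a guanylate-binding protein, 2.54), *Ifit3* (2.03) and *Oasl1* (2.24) rose too. *Ifitm3* differed by -0.14. *Slfn4* varied most of the list among blood libraries, at 1036, 1064 and 1106 FPKM in BM and 1129, 1366 and 609 in PB, with its lowest value in PB replicate 3. The interferon-stimulated response element, searched on both strands as a pair of TTTC repeats that any 2 bases separate, lay in 13 of 23 promoters of the list (56.5%) against 3.5% of all promoters, and in 8.69% of the promoters of DEGs higher in PB against 2.85% of those lower. The promoter of *Ifitm3*, which was not a DEG, held the element too. Windows of 30 bases on the plus strand follow, with the element in capitals, from *Ifit3* (chr19:34583363-34583392 and chr19:34583397-34583426) and *Gbp2* (chr3:142620594-142620623). Both genes were chosen because they rose, so these windows do not show that the element goes with a rise.
Ifit3 first window: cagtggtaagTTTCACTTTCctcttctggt
Ifit3 second window: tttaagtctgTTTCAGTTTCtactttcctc
Gbp2 window: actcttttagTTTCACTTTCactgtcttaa

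Rises were found among genes that prolong neutrophil life and among genes that end it. *Mcl1*, the BCL2-family protein on which neutrophil survival depends, rose from 383, 391 and 388 FPKM in BM to 1352, 1335 and 1222 in PB, with 399 and 396 in the other WT blood libraries, close to BM. The pro-apoptotic *Pmaip1* (NOXA, 2.55) and *Bcl2l11* (BIM, 1.68) rose as well. *Bcl2a1b* rose by 2.21, but its near-identical copies share reads and its value is uncertain. *Birc3* (cIAP2) differed by 0.68. In all, 9 of 21 genes rose, compared with 7.85% of all genes tested, and none fell, with 1 of the 21 passed only through PB.

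**Figure D4:**
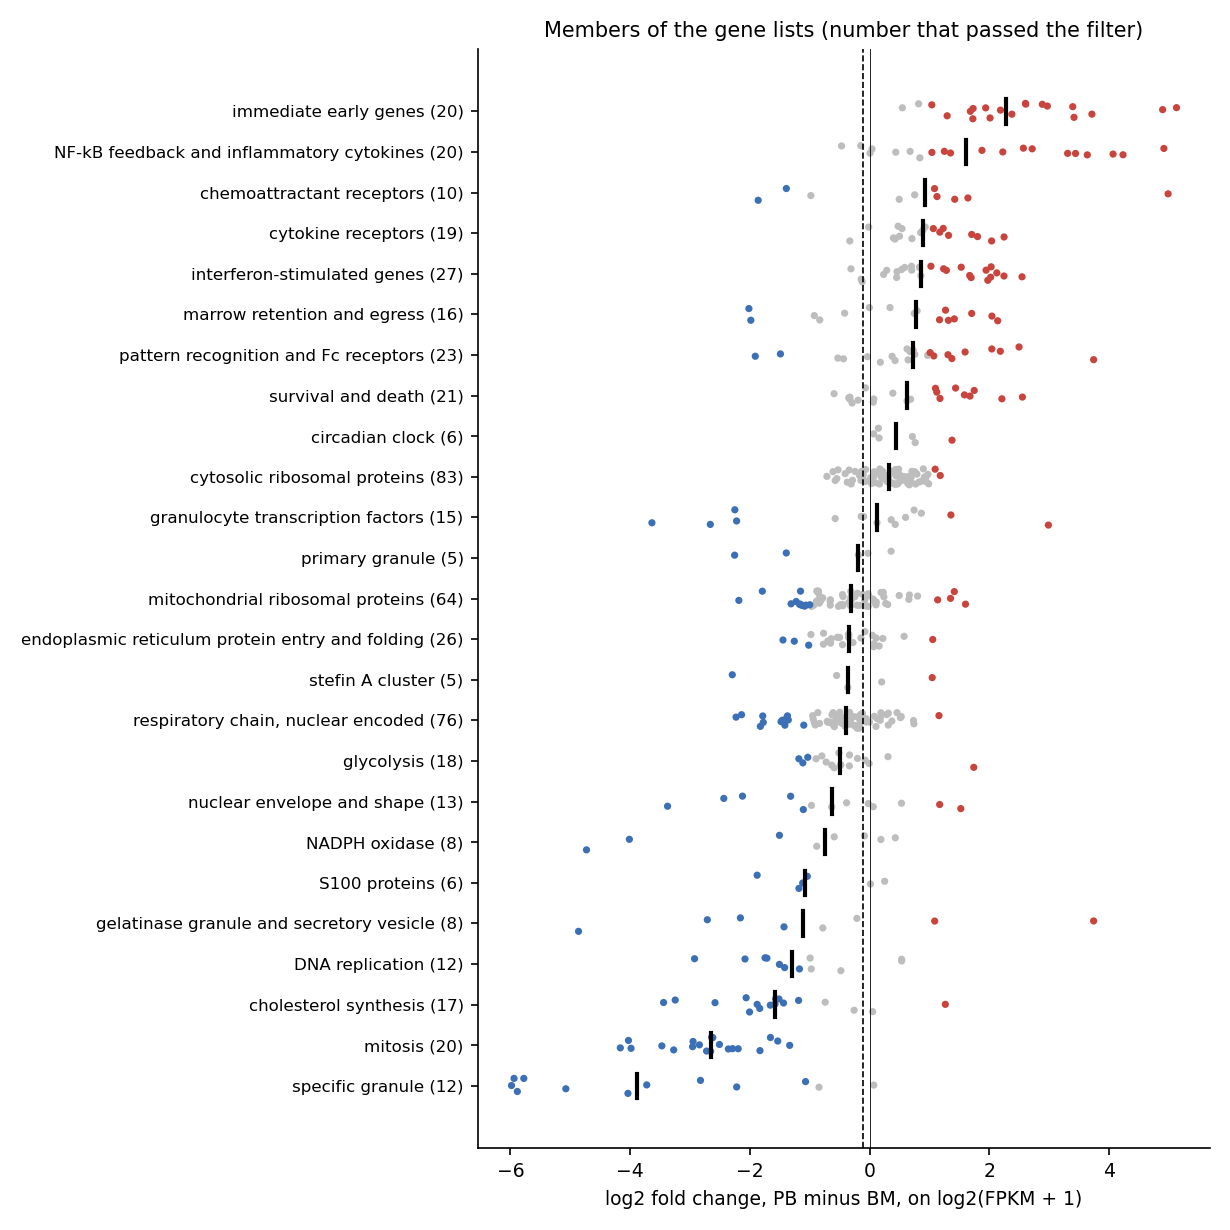
Log2 fold change from BM to PB (horizontal axis) of the tested members of 25 gene lists, with a point per gene, a mark for each list's median and a dashed line at the all-gene median of -0.12. Mitosis and specific granule genes lie to the left, at medians of -2.65 and -3.88, and immediate early genes to the right, at 2.28.

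Genes of the cholesterol synthesis list fell in 13 of 17 cases, compared with 14.1% of all genes tested, and 1 rose. Of the 17, 8 had passed only through BM. With the filter on all 6 libraries 4 falls were left. *Fdps*, which makes farnesyl diphosphate, fell from 13.1, 11.5 and 12.96 FPKM in BM to 0.657, 0.26 and 0.368 in PB (log2 fold change -3.25 ± 0.11). It had passed the filter only through BM and so was bound to be lower in PB. *Srebf2*, the factor that drives this pathway, fell from 39.1, 40.0 and 39.1 to 5.61, 5.78 and 5.85 FPKM. The regulator and the enzymes *Fdps*, *Hmgcs1* (-2.06) and *Msmo1* (-2.01) were thus all lower in blood, and the late enzyme *Sc5d* rose (1.26).

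Genes of protein synthesis and energy supply were called at shares near or below the 22.0% of all genes. Of 83 cytosolic ribosomal protein genes, 2 rose (*Fau*, 1.18, and *Rps27*, 1.09) and none fell, 65 of the 83 differences were positive, and the median was 0.32. *Rps9*, the most abundant, differed by 0.94. Under the median-ratio rescaling 9 rose in place of 2. Many of these genes have processed pseudogenes that share reads, which makes single values uncertain. Mitochondrial ribosomal genes had 11 falls and 4 rises among 64 with a median of -0.32, from *Mrpl45* (-2.18) and *Mrpl51* (-1.79) to *Mrps15* (1.35) and *Mrpl52* (1.60). Of the 64, 10 had passed the filter only through BM and 1 only through PB, and with a pseudocount of 0.1 the falls numbered 20. Nuclear-encoded respiratory chain subunits, 2 of which had passed only through BM, had 12 falls and 1 rise among 76, with a median of -0.40. These falls included the complex I subunits (*Ndufv3*, -2.23, and *Ndufc2*, -1.83) and *Uqcrb* of complex III (-1.78), and the abundant *Cox8a* and *Atp5e* differed by 0.51 and 0.37. Endoplasmic reticulum genes for protein entry and folding had 3 falls and 1 rise among 26: *Rpn1* (-1.45) and *Ddost* (-1.26), subunits of the enzyme that attaches glycans, and the chaperone *Hsp90b1* (-1.02) fell, *Sec61b* of the translocon differed by 0.07, and the chaperone *Hspa5* rose (1.05). Of the 26 endoplasmic reticulum genes, 1 had passed only through BM, and with a pseudocount of 0.1 the falls numbered 5. Among 18 glycolysis genes, *Pgam1* (-1.18), *Pgk1* (-1.12) and *Hk3* (-1.03) fell and the glucose transporter *Slc2a1* rose (1.74). *Pgk1* and *Hk3* missed the fold threshold under both rescalings. *Pkm* and *Gpi1*, the most abundant of the list, differed by -0.20 and -0.73. Of 6 clock genes tested, *Per1* rose from 23.7, 24.0 and 24.1 FPKM in BM to 66.6, 66.4 and 58.3 in PB, whereas the other WT blood libraries held 3.32 and 3.97.

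Other genes were among the largest changes. *Adpgk*, an ADP-dependent glucokinase, fell from 893, 913 and 902 FPKM in BM to 30.3, 32.4 and 26.9 in PB (log2 fold change -4.87 ± 0.07). *I830127L07Rik* (-4.94), *Ear2* (an eosinophil-associated ribonuclease with near-identical relatives and a member of the eosinophil list, -4.82) and *Serpinb1a* (an inhibitor of neutrophil serine proteases, -4.80) fell by similar amounts. Among rises, *Ppp1r15a* (GADD34, which ends the stress block on translation, 4.27) and *Amz1* (a metallopeptidase, 3.73) stood beside the inflammatory genes. *Piezo1*, the mechanosensitive channel that the study examines, measured 1.27, 1.19 and 1.17 FPKM in BM and 0.267, 0.414 and 0.323 in PB, from 227, 214 and 200 and 44, 71 and 56 reads. *Piezo1* had passed the filter only through BM, so each blood library was bound to lie below each marrow library. The log2 difference of -0.73 ± 0.07 missed the fold threshold with a pseudocount of 1. It passed the threshold with a pseudocount of 0.1, at -1.60, and on recovered reads, at -1.48. The WT blood libraries of the Piezo1 experiment held *Piezo1* at 0.0407 and 0.0357 FPKM.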

How the data were processed

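Bulk RNA-Seq of sorted WT neutrophils was used as deposited, with samples grouped by their labels. The authors trimmed reads with fastp, aligned them to mm10 with HISAT2, counted them with HTSeq (versions and strand setting not given in the sources used here) and deposited FPKM for 21878 genes. The labels name a SMARTER mRNA kit and the methods a VAHTS kit. Whole reads were recovered from 100.0% of the FPKM values (tolerance 0.005 reads). Spreadsheet software had changed 27 symbols into dates, and these were restored by NCBI gene identifier.

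Genes that reached an FPKM of 1 in 3 or more of the 6 PB and BM libraries were fitted with limma-trend (limma 3.58.1, R 4.3.3, robust eBayes with a trend) on log2(FPKM + 1), a scale that understates the change of low genes, with Benjamini-Hochberg adjustment over all genes tested. The authors' own comparison columns were not used. With 3 libraries per group no permutation test reaches 0.05, so none was run. Replicates differed by more than counting noise, and no library was a copy of another. The WT PB libraries of the Piezo1 experiment come from a table normalized separately and enter no test.

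The members and gene lists were chosen with earlier results of these data known. The genes named are the 10 largest rises and falls among DEGs with a mean of at least 5 FPKM in the higher group, up to 4 most changed and 2 most abundant members of each list, and a fixed set of sort, retention, granule and cycle genes. Other list members and markers named here were chosen after their values were seen. Promoters are from RefSeq (GRCm38.p6), 1 per gene at its first listed start. Alternatives were a pseudocount of 0.1, no filter, a filter on all 6 libraries, median-ratio rescaling, recovered reads, all 9 libraries of the tissue table, a replicate block, the adjusted p alone, limma treat and each library left out. Some genes that this rule names are not reported here. The fit was tested on simulated data. Python 3.11.15 with pandas 2.3.3, numpy 2.4.6 and matplotlib 3.10.9 made the tables and figures.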

Additional observations from a re-analysis of the deposited data

How the results depend on the processing

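Most named genes kept their direction and their side of the threshold: of 131, the median-ratio rescaling left 120 so and leaving out PB replicate 3 left 126. The number of DEGs (1811) ranged from 1786 to 1827 with a library left out, was 1785 after median-ratio rescaling and 2389 with a pseudocount of 0.1, and came to 6023 (2465 higher, 3558 lower) on the adjusted p alone and 1159 (408 higher, 751 lower) with limma treat. With an FPKM of 1 required in all 6 libraries, 690 genes were lower in place of 1164, since that filter removes genes that fell below 1: called falls went from 20 to 1 for mitosis, from 7 to 0 for DNA replication and from 13 to 4 for cholesterol synthesis. The median log2 fold change of -0.12 was -0.0113 without a filter, -0.0555 with that filter, -0.00185 after median-ratio rescaling, -0.00328 on recovered reads, and -0.123 to -0.0999 with a library left out. Ribosomal protein genes called higher numbered 9 after median-ratio rescaling, 7 on recovered reads, and 4, 4 and 6 without BM replicate 1, PB replicate 1 and PB replicate 2, in place of 2.

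Among named genes, signs turned only for *Prss57* (0.0640 after median-ratio rescaling, 0.0796 on recovered reads, -0.148 to 0.0428 with a library left out), *Sec61b* (-0.00759 to 0.178 with a library left out), *Rac2* (0.0446 under both rescalings), *Slfn4* (0.00830 and 0.00825 under the rescalings, -0.365 to 0.217 with a library left out and positive without PB replicate 3) and *Lbr* (0.110 and 0.111). The cause was not tested. *Stfa2l1*, *Mrpl23*, *Hsp90b1* and *Hk3* missed the fold threshold without PB replicate 3, at 0.99, -0.94, -0.98 and -0.96. *Hsp90b1* did so without BM replicate 2 as well, and *S100a9* without BM replicate 1 or PB replicate 2. *Pgk1*, *Hk3*, *Hsp90b1*, *S100a9* and *S100a13* missed it under both rescalings. *Rps9* and *Ptprc* passed it after median-ratio rescaling, at 1.07 and 1.04. The 20 most abundant genes held on average 19.4% of reads in BM and 12.8% in PB, and the top 50 held 51.2% and 36.1% of FPKM.

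Deviations from the group means correlated at -0.064, 0.055 and -0.062 between PB and BM libraries of the same replicate number. Between libraries of different numbers they ranged from -0.105 to 0.121. With 3 libraries per group, these values cannot tell whether samples were paired. A replicate block gave 1812 DEGs and changed no call of a named gene and no count of a list. Depth limits the low genes: division genes in PB rest on 5 to 16 reads for *Mki67* and *Ube2c*, and primary granule proteases on few reads in both tissues.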

Other observations

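Several further gene families, chosen after the values were seen and so given as a description, moved mostly in 1 direction from BM to PB. Of 8 annexins tested, calcium-dependent membrane binders, 5 fell and 1 rose, compared with 14.1% and 7.85% of all genes tested, with 1 passed only through BM. *Anxa3* went from 146 ± 1.91 to 8.94 ± 1.43 FPKM (SD, n = 3), *Anxa5* from 47.9 ± 0.523 to 8.50 ± 0.416, and the abundant *Anxa1*, which restrains inflammation, from 2649.7 ± 60.5 to 892 ± 27.0. *Anxa6* rose from 17.3 ± 0.2 to 45.3 ± 4.78. The 4 serpins tested, protease inhibitors, fell, but 2 of them had passed the filter only through BM and so were bound to differ, with *Serpinb1a* going from 247 ± 2.57 to 7.95 ± 1.02 FPKM and *Serpinb10* from 7.37 ± 0.0901 to 0.197 ± 0.0283.

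The chemokines (7 of 7 tested), Dusp phosphatases (6 of 8) and CD300 receptors (5 of 8) rose, compared with 7.85% of all genes tested, with none of them falling, and 2 of these chemokines and 2 of these Dusp genes had passed only through PB. *Ccl6* went from 553 ± 13.03 to 1422 ± 77.0 FPKM, *Dusp16* from 1.52 ± 0.174 to 13.5 ± 0.43, and *Cd300ld* from 115 ± 2.89 to 368 ± 21.1, although some CD300 genes are close copies that can share reads. Of 67 histone genes listed, 14 passed the filter, 8 rose and none fell, the opposite direction to the mitosis genes: *Hist1h1c*, a linker histone, rose from 73.1 ± 3.56 to 467 ± 29.6 FPKM (log2 fold change 2.66 ± 0.07) and *Hist1h2bc* from 30.1 ± 3.65 to 141 ± 10.1. The labels name polyA enrichment of the RNA, and histone genes are close copies that can share reads, so single values are uncertain.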
